A study of Mus musculus with 127 samples.

Results

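The 8 genes described here are Hmgb1, Hmgb2, Set, Anp32b, Ptma, H2afz, Dut and Stmn1, of 23366 gene symbols measured in blood stem and progenitor cells of mouse bone marrow. They were chosen by name around Hmgb1, Set, Stmn1 and Dut, which were picked because their levels at 8 h lay below those at 0 h in stimulated cells of young mice. That contrast is therefore given as a description, with no test. All 8 passed the filter on low counts in every fit. H2afz did not follow the others: over both courses it was lower at 8 h than at 0 h in 6 of 18 pairs of libraries, and each of the others in 18 of 18. These pairs include those of stimulated young mice on which the choice rested, and pairs from 1 mouse are not independent. Of all genes, 49.2% to 60.1% had a fitted change below 0 at 8 h, depending on course and cell type. Stmn1 encodes a cytosolic protein, so the set is not purely nuclear. In stimulated young mice the median changes of Set, Stmn1 and Ptma at 4 h were as large as at 8 h or larger.

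Libraries were made with SMART-seq2, which copies whole transcripts of small samples, from polyA RNA of 3 populations told apart by surface markers. These are LT and ST, the haematopoietic stem cells with long-term and with short-term repopulating ability, and MPP, the multipotent progenitors that arise from them. The stimulated course used young mice 1, 2 and 3 and old mouse 2: HSPC media held LPS at 100 ng/ml, which Tlr4 recognises, plus Pam3csk4 at 1 ug/ml, a lipopeptide that Tlr2 binds, with sampling at 0, 0.5, 1, 2, 4, 8 and 12 h. The unstimulated course, in HSPC media without ligand, used young mouse 4 together with old mouse 4, and sampling was at 0, 2, 4 and 8 h. Each library holds cells of 1 animal, at 1 time. Age is given only as young or old, and strain and sex are not given in the sources used here. Old age with ligand rests on 1 mouse, and each age without ligand on 1 mouse.

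High mobility group B proteins bend DNA through HMG boxes, and Hmgb1 released from cells acts as an alarm signal read by Ager and Tlr4. Set, Anp32b and Ptma are acidic nuclear proteins that bind histones: Set belongs to a complex that masks histone tails and also inhibits the phosphatase PP2A, Anp32b is a leucine-rich histone chaperone, and Ptma (prothymosin alpha) binds linker histone. H2afz encodes the histone variant H2A.Z, found at promoters. Dut hydrolyses dUTP and so keeps uracil out of DNA, and Stmn1 (stathmin) binds tubulin and destabilises microtubules. Transcripts of these genes are generally abundant in dividing blood progenitors.

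The summed libraries number 108 and hold 990801 to 11764630 counts (median 4200713), with 6241 to 14096 genes detected. Levels are CPM, counts per 1000000 of the library, of 1 mouse, cell type and time. LT markers stood at low levels and varied: Slamf1 was at 0 in 5 of 6 ST libraries at 0 h and in 1 of 6 LT libraries, and Procr at 0 in 2 of 6 LT libraries. Flt3, a marker of MPP, had medians of 32.5 CPM in LT, 152 in ST and 346 in MPP at 0 h. Transcripts of 6 neutrophil granule proteins summed to between 16764 and 64447 CPM at 0 h in 5 mice, and to 240 CPM in LT, 158 in ST and 98.8 in MPP of young mouse 3. In bulk RNA, fewer cells of a type and less RNA per cell cannot be told apart.

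Promoters of 7 of the 8 genes were found in the RefSeq table of build GRCm38.p6, with 9 start sites in all. Hmgb1 and Set have 2 starts each, of which the one farther upstream is shown. The 120 bases before the start are shown for 3 genes that were lower at 8 h (Hmgb1, Set and Dut), for Hmgb2, whose levels at the 2 times overlapped, and for H2afz, whose fitted changes with ligand were above 0. They are printed 5′ to 3′ on the gene's strand, and capitals mark CCAAT boxes in either orientation (CCAAT or ATTGG), the site of the factor NF-Y.
Hmgb1, chr5:149053058-149053177, minus strand: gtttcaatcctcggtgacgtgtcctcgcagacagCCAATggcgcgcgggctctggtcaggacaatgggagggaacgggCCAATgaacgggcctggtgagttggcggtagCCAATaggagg
Set, chr2:30061876-30061995, plus strand: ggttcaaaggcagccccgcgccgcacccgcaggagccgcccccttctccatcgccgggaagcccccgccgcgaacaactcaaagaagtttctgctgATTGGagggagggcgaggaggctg
Dut, chr2:125247395-125247514, plus strand: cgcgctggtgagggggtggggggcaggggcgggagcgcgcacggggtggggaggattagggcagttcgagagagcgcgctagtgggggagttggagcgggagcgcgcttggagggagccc
Hmgb2, chr8:57511723-57511842, plus strand: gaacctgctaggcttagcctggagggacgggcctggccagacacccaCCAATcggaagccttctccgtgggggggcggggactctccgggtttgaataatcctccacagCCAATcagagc
H2afz, chr3:137864367-137864486, plus strand: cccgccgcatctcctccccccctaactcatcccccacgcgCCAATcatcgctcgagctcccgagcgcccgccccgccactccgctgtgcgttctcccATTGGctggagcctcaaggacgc

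Within 250 bases before the start, CCAAT in either orientation was found in 6 of the 9 promoters (of Hmgb1, Hmgb2, Set, Anp32b and H2afz) and in 33.8% of the 32851 promoters of the table. Hmgb1 held 3 such boxes within 86 bases of the start shown and none before its other start, and H2afz held 2 within 80 bases. The box was thus found both in genes that were lower at 8 h in each mouse and in H2afz. The GC box GGGCGG, in either orientation, was found in 8 of the 9 promoters and in 32.7% of all promoters. The CHR element TTTGAA, searched on both strands, was found in 2 of the 9 promoters (Hmgb2 and Set) and in 15.99% of all promoters. E2F words (TTTCCCGC, TTTGGCGC, TTTCGCGC or TTTGCCGC, both strands) were found in 1 of the 9 promoters (Ptma) and in 1.86% of all promoters. A match is a description of letters only.

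In stimulated cells Hmgb1 was lower at 8 h than at 0 h in each of the 4 mice and 3 cell types. LT of young mice 1, 2 and 3 held 501, 459 and 391 CPM at 8 h, against 1386, 1423 and 748 CPM at 0 h. In ST the values were 544, 614 and 507 CPM at 8 h, against 1414, 1206 and 803 CPM at 0 h. In MPP they were 484, 477 and 666 CPM at 8 h, against 1326, 1532 and 1328 CPM at 0 h. The 2 times did not overlap in any cell type. The share of all genes without overlap is not given here. Fitted changes were -1.35 ± 0.29 (log2 ± SE) in LT, -0.95 ± 0.29 in ST and -1.23 ± 0.29 in MPP. Old mouse 2, which the choice of genes did not use, held 324, 402 and 612 CPM at 8 h in LT, ST and MPP, against 889, 932 and 1309 CPM at 0 h.

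Set showed the same order of values. LT held 301, 194 and 245 CPM at 8 h in young mice 1, 2 and 3, against 591, 602 and 589 CPM at 0 h. MPP held 193, 225 and 319 CPM at 8 h, against 607, 776 and 771 CPM at 0 h. Fitted changes were -1.22 ± 0.31 in LT, -1.01 ± 0.31 in ST and -1.41 ± 0.31 in MPP. At 12 h LT of young mouse 1 held 614 CPM, above its value at 0 h, and MPP of young mice 1, 2 and 3 held 257, 407 and 462 CPM.

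Ptma and Anp32b, the other acidic histone binders, were lower at 8 h in all 12 pairs of stimulated libraries. Ptma averaged 572 ± 315 CPM at 8 h and 1334 ± 362 CPM at 0 h in LT (SD, n = 3 each). In MPP it averaged 573 ± 149 CPM at 8 h and 1673 ± 355 CPM at 0 h. Fitted changes of Ptma were -1.18 ± 0.36 in LT, -0.77 ± 0.36 in ST and -1.42 ± 0.37 in MPP. Anp32b averaged 97.7 ± 42.6 CPM at 8 h and 296 ± 108 CPM at 0 h in LT. In ST it averaged 99.7 ± 52.8 CPM at 8 h and 282 ± 115 CPM at 0 h, and in MPP 143 ± 29.3 CPM at 8 h and 285.5 ± 5.52 CPM at 0 h. Of the 108 libraries, the lowest value of Anp32b, 28.6 CPM, was that of LT of young mouse 2 at 12 h.

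Dut had the steepest decline of the 8 genes in LT. In young mice 1, 2 and 3 LT held 0.341, 10.6 and 9.41 CPM at 8 h, against 104, 197 and 94.0 CPM at 0 h. The value of young mouse 1 is 1 count, and at 4 h that mouse had 0 of 4181305 counts, which allows up to 0.717 CPM (3 counts, counting error only). ST held 37.0, 22.8 and 13.8 CPM at 8 h, against 119.96, 144 and 65.0 CPM at 0 h. MPP held 21.7, 21.98 and 42.8 CPM at 8 h, against 178, 221 and 179 CPM at 0 h. Fitted changes were -4.22 ± 0.96, -2.07 ± 0.87 and -2.61 ± 0.89. Dut was also the member that technical repeats of 1 condition measured least well, with a median gap of 0.50 and a highest gap of 2.97 on the log2 scale over 12 conditions. At 12 h LT held 23.7, 79.6 and 35.1 CPM, above each mouse's value at 8 h.

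Stmn1 was lower at 8 h in all 12 pairs as well. LT held 112, 56.1 and 83.4 CPM at 8 h in young mice 1, 2 and 3, against 240.1, 331 and 279 CPM at 0 h. MPP held 65.4, 112 and 164 CPM at 8 h, against 341, 499 and 582 CPM at 0 h, and the 2 times did not overlap. Fitted changes were -1.71 ± 0.45 in LT, -1.35 ± 0.45 in ST and -1.94 ± 0.46 in MPP. Old mouse 2 held 19.0 CPM at 8 h in LT, against 166 CPM at 0 h.

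In Hmgb2 and H2afz, unlike the 6 genes above, the levels at 8 h and 0 h overlapped between young mice. This is the contrast on which the choice of genes rested, and the share of all genes without overlap is not given here. Hmgb2 was lower at 8 h in all 12 pairs too, within each mouse, and its fitted changes were -0.88 ± 0.71, -0.78 ± 0.71 and -0.37 ± 0.71 in LT, ST and MPP. H2afz held 1913, 1606 and 397 CPM at 8 h in LT of young mice 1, 2 and 3, against 1368, 1442 and 659 CPM at 0 h. In MPP it held 2635, 1601 and 745 CPM at 8 h, against 1433, 1576 and 1074 CPM at 0 h. Its fitted changes were 0.21 ± 0.67, 0.51 ± 0.67 and 0.47 ± 0.67, none of them below 0. The only pairs of stimulated libraries with less H2afz at 8 h were LT and MPP of young mouse 3, the mouse with few granule transcripts.

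Other measures moved between 0 h and 8 h in the same stimulated libraries. LT of young mice 1, 2 and 3 held 6241, 7547 and 11501 detected genes at 8 h, against 10101, 12319 and 12155 at 0 h. In MPP they held 10116, 11442 and 13356 at 8 h, against 13407, 13253 and 13281 at 0 h. Granule transcripts in MPP summed to 78555, 39144 and 201 CPM at 8 h, against 43969, 20662 and 98.8 CPM at 0 h. A list of 12 markers of blood lineages and other cell types, Elane and Mpo among them, was summed too. In LT the sum was 3028, 1207 and 116 CPM at 8 h, against 9254, 7782 and 91.3 CPM at 0 h, so that it was higher at 8 h in young mouse 3. In MPP it was 2163, 1313 and 522 CPM at 8 h, against 8117, 5524 and 1625 CPM at 0 h. Mpo stood at 1416 CPM or more in MPP of each of 6 mice at 0 h, and which cells held these transcripts was not tested. The part of all these measures in the changes of the 8 genes was not tested.

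**Figure D1:**
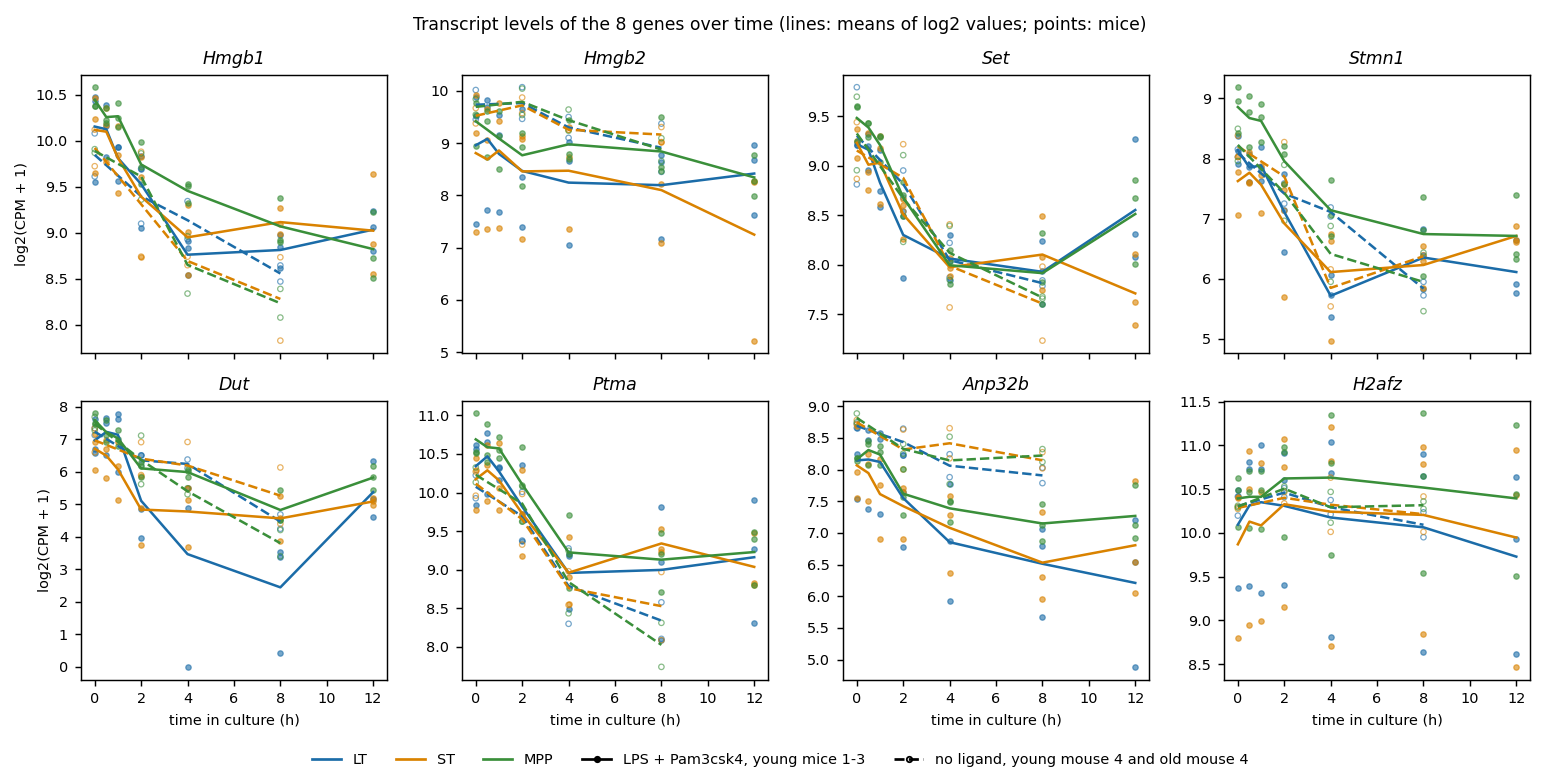
Levels of the 8 genes as log2(CPM + 1) against time in culture (h), 1 panel per gene, for LT, ST and MPP. Filled points and solid lines are young mice 1, 2 and 3 with ligand and open points and dashed lines young mouse 4 and old mouse 4 without; lines join means of the log2 values. At 8 h the lines of Hmgb1, Set, Stmn1, Dut and Ptma lie below their start in both courses, and those of Set in LT and MPP and of Dut with ligand are higher again at 12 h. At 8 h the median change of Anp32b is -1.36 with ligand in young mice and -0.66 without, and that of H2afz is 0.15 with ligand and -0.10 without.

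Levels below those at 0 h were seen before 8 h as well. In stimulated young mice the median log2 change of Hmgb1 from 0 h, over 9 pairs of libraries, was -0.66 at 2 h, -1.11 at 4 h, -1.38 at 8 h and -1.24 at 12 h, on the log2(CPM + 1) scale. For Set it was -0.76 at 2 h, -1.28 at 4 h, -1.28 at 8 h and -1.12 at 12 h. Ptma gave -0.48, -1.35, -1.04 and -1.02 at the same times, so that its median was lowest at 4 h. Stmn1 gave -0.77, -1.86, -1.82 and -1.79, and Dut -1.65, -1.95, -2.98 and -1.64. At 2 h Hmgb1, Hmgb2, Set, Dut, Ptma and Anp32b were below their 0 h value in 9 of 9 pairs, and Stmn1 in 8 of 9. H2afz was above its 0 h value in 8 of 9 pairs at 2 h. The 9 pairs come from 3 mice, so cell types of 1 mouse are not independent. The 0 h libraries of these mice entered the choice of the genes, so the counts of pairs are a description only. How many of all genes lay below 0 h at 2 h is not given here.

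The cultures without ligand came from mice that the choice of genes did not use, and they allow a test. At 8 h all of the 8 genes but H2afz lay below 0 h in both mice and all 3 cell types. Of all genes, 49.9%, 49.2% and 51.7% had fitted changes below 0 in LT, ST and MPP. How many of all genes lay below 0 h in both mice is not given here. The changes of Hmgb1, Set and Ptma passed a test with mouse as a block. LT of young mouse 4 and old mouse 4 held 353 and 399 CPM of Hmgb1 at 8 h, against 781 and 1081 CPM at 0 h. ST held 226 and 424 CPM at 8 h, against 844 and 1112 CPM at 0 h. MPP held 269 and 334 CPM at 8 h, against 934 and 959.9 CPM at 0 h.

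Ptma was the gene of the 8 that passed edgeR's quasi-likelihood test with Benjamini-Hochberg adjustment over 14401 genes, in MPP, where 213 and 317 CPM at 8 h stood against 1122 and 1283 CPM at 0 h (log2 change -1.92 ± 0.43, adjusted p = 0.022). The share of all genes called lower in that comparison was 0.0694%. In LT 0 of the 8 genes passed, beside 0.0764% of all genes called lower, and in ST 0 passed, beside 0.111%. At an unadjusted p under 0.05, 5 of the 8 genes were lower in LT, 4 in ST and 5 in MPP. Such a p, in either direction, was held by 7.64% of all genes in LT, 7.42% in ST and 6.42% in MPP. The p-values measure the spread between libraries of separate mice, pooled over the 72 libraries of both courses, and only 2 mice stand on each side.

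An animal is marked by its age and number together, and each gave libraries at all its times. With mouse as a block 3 of the 8 genes passed in each cell type: Hmgb1, Set and Ptma. The share of all genes called lower was then 0.375% in LT, 0.333% in ST and 0.312% in MPP. Blocked log2 changes of Hmgb1 were -1.12 ± 0.27 in LT (adjusted p = 0.017), -1.41 ± 0.27 in ST (adjusted p = 0.0013) and -1.42 ± 0.27 in MPP (adjusted p = 0.00098). Set gave -1.31 ± 0.29, -1.33 ± 0.29 and -1.38 ± 0.29, with adjusted p of 0.0095, 0.0074 and 0.0044. Ptma gave -1.58 ± 0.29, -1.37 ± 0.29 and -1.96 ± 0.30, with adjusted p of 0.00081, 0.0051 and 2.3e-05. All of these were lower in 2 of 2 mice. The blocked p-values measure the spread left after group and mouse, pooled over the 72 libraries of both courses. Libraries of 1 mouse count as separate in that spread, and those of the stimulated young mice are among them. Only 2 mice were cultured without ligand, so these p-values do not stand for repeats over many mice. In MPP the unblocked fit called 0 of the 8 genes without old mouse 2 (0.0286% of all genes lower), young mouse 4 (0.00659%) or old mouse 4 (0%). It called 3 there without young mouse 1, beside 0.334% of all genes, and 2 without young mouse 3, beside 0.0853%. Without young mouse 1 it called 2 of the 8 in LT, beside 0.583% of all genes, and 2 in ST, beside 0.626%. Without young mouse 3 it called 1 in ST, beside 0.128%.

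DESeq2 on the same libraries called 5 of the 8 genes lower in LT, 4 in ST and 5 in MPP, the 5 being Hmgb1, Set, Stmn1, Dut and Ptma, and the 4 these without Dut. The shares of all genes called were larger, 3.05% of genes lower in LT, 3.31% in ST and 2.82% in MPP. Adding old mouse 2, whose cells had ligand, to the 2 mice without gave 2 calls in LT (Set and Stmn1), 2 in ST (Hmgb1 and Set) and 4 in MPP (Hmgb1, Set, Stmn1 and Ptma) in edgeR. The background shares were 0.0417%, 0.0556% and 0.0278%.

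Stmn1 and Dut had the most negative fitted changes in LT and MPP without ligand, and neither passed the edgeR test after adjustment. Stmn1 held 60.7 and 51.9 CPM at 8 h in LT of young mouse 4 and old mouse 4, against 259.6 and 284 CPM at 0 h (log2 change -2.10 ± 0.60, adjusted p = 0.15). In MPP it held 43.0 and 85.5 CPM at 8 h, against 248 and 359.8 CPM at 0 h (-1.98 ± 0.60, adjusted p = 0.22). Dut held 18.04 and 24.8 CPM at 8 h in LT, against 139 and 162 CPM at 0 h (-2.65 ± 1.03, adjusted p = 0.49). In MPP 9.56 and 17.5 CPM at 8 h stood against 154 and 205 CPM at 0 h (-3.46 ± 1.07, adjusted p = 0.25). In ST the mice differed: Dut held 69.3 CPM at 8 h in young mouse 4 and 20.1 CPM in old mouse 4, against 96.1 and 161 CPM at 0 h.

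Anp32b, Hmgb2 and H2afz did not pass without ligand in the edgeR, blocked, DESeq2 or enlarged fits. Anp32b held 260.4 and 219.8 CPM at 8 h in LT of young mouse 4 and old mouse 4, against 422 and 403 CPM at 0 h. Its fitted changes were -0.61 ± 0.49, -0.39 ± 0.48 and -0.34 ± 0.48 in LT, ST and MPP without ligand. With ligand they were -1.53 ± 0.52, -1.41 ± 0.52 and -0.86 ± 0.51. The difference between courses was not tested, because it holds the contrast that chose the genes and because different mice were cultured with and without ligand. H2afz without ligand changed by -0.05 ± 0.63, 0.17 ± 0.63 and 0.27 ± 0.63, and Hmgb2 by -0.61 ± 0.72, -0.14 ± 0.71 and -0.56 ± 0.72.

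**Figure D2:**
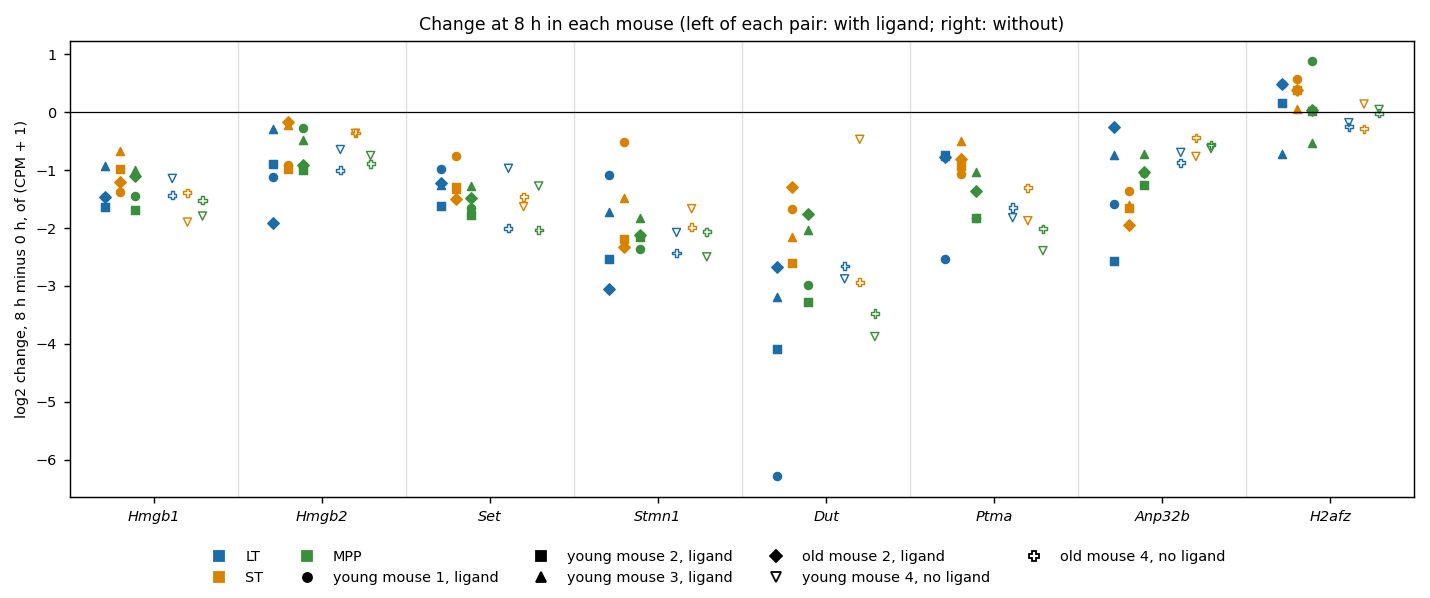
Change at 8 h from 0 h in each mouse, in log2(CPM + 1), for the 8 genes. For each gene the filled symbols at the left are the 4 mice with ligand and the open symbols at the right the 2 mice without, coloured by cell type and shaped by mouse. All genes but H2afz lie below 0 in all 18 pairs, and H2afz lies below 0 in 6 of 18.

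Detected genes and the 12 lineage and cell type markers moved with time in the cultures without ligand as well. LT of young mouse 4 and old mouse 4 held 8845 and 10114 detected genes at 8 h, against 10469 and 11597 at 0 h. MPP held 9459 and 10253 at 8 h, against 11912 and 11750 at 0 h. The 6 granule transcripts summed to 43571 and 14646 CPM in LT at 8 h, against 62289 and 18325 CPM at 0 h, while in MPP of old mouse 4 they summed to 18840 CPM at 8 h, against 16764 CPM at 0 h. The 12 lineage and cell type markers summed to 2001 and 3337 CPM at 8 h in LT of young mouse 4 and old mouse 4, against 8177 and 17518 CPM at 0 h. In MPP they summed to 771 and 2626 CPM at 8 h, against 13102 and 14644 CPM at 0 h. Their median log2 changes were -3.11, -2.61 and -2.24 in LT, ST and MPP, and those of the 3 MPP markers -2.25, -5.45 and -2.17, with 0 genes called in either list. The part of these markers in the changes of the 8 genes was not tested.

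Late stimulated cells were compared with early ones, 12 h against 2 h. The contrast uses neither 8 h nor 0 h libraries, but the fit took its spread from all 63 libraries of these mice, those times among them. It rests on the same 3 mice and course as the choice of the genes, so it is not independent of that choice. None of the 8 genes passed edgeR's test over 13678 genes in any cell type. The shares of all genes called lower were 0.00731% in LT, 0.0292% in ST and 0.00731% in MPP. At an unadjusted p under 0.05, 2 of the 8 genes were lower in LT, 2 in ST and 3 in MPP, and 8.98%, 11.5% and 3.28% of all genes had such a p in either direction. Hmgb1 came closest in MPP, with 363, 422 and 599 CPM at 12 h in young mice 1, 2 and 3, against 840.4, 1012 and 735 CPM at 2 h. It was lower in 3 of 3 mice with no overlap (log2 change -0.995 ± 0.29, adjusted p = 0.69).

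With mouse as a block the change of Hmgb1 in MPP passed (-0.96 ± 0.23, adjusted p = 0.028), beside 0.402% of all genes called lower. DESeq2 also called Hmgb1 alone of the 8 genes in MPP, beside 0.926% of all genes called lower. Stmn1 in MPP averaged 110 ± 49.8 CPM at 12 h and 252 ± 54.2 CPM at 2 h (SD, n = 3 each), lower in 3 of 3 mice (-1.29 ± 0.45, adjusted p = 1.0). Ptma in MPP averaged 612 ± 147 CPM at 12 h and 1142 ± 377 CPM at 2 h, also lower in 3 of 3 mice. Set in ST averaged 213 ± 55.9 CPM at 12 h and 366 ± 52.6 CPM at 2 h (-0.82 ± 0.31, adjusted p = 0.36). In LT Set ran the other way, with 400.3 ± 187 CPM at 12 h and 321 ± 76.4 CPM at 2 h. Dut averaged 46.1 ± 29.6 CPM at 12 h and 44.4 ± 40.6 CPM at 2 h in LT.

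When 12 h was set against the mean of 0.5, 1 and 2 h, Set passed in ST, beside 0.431% of all genes called lower. Hmgb1 and Stmn1 passed in MPP, beside 0.0585%, and 0 of the 8 genes passed in LT. H2afz changed by -0.45 ± 0.67, -0.27 ± 0.67 and -0.18 ± 0.67 between 2 h and 12 h in LT, ST and MPP.

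**Figure D3:**
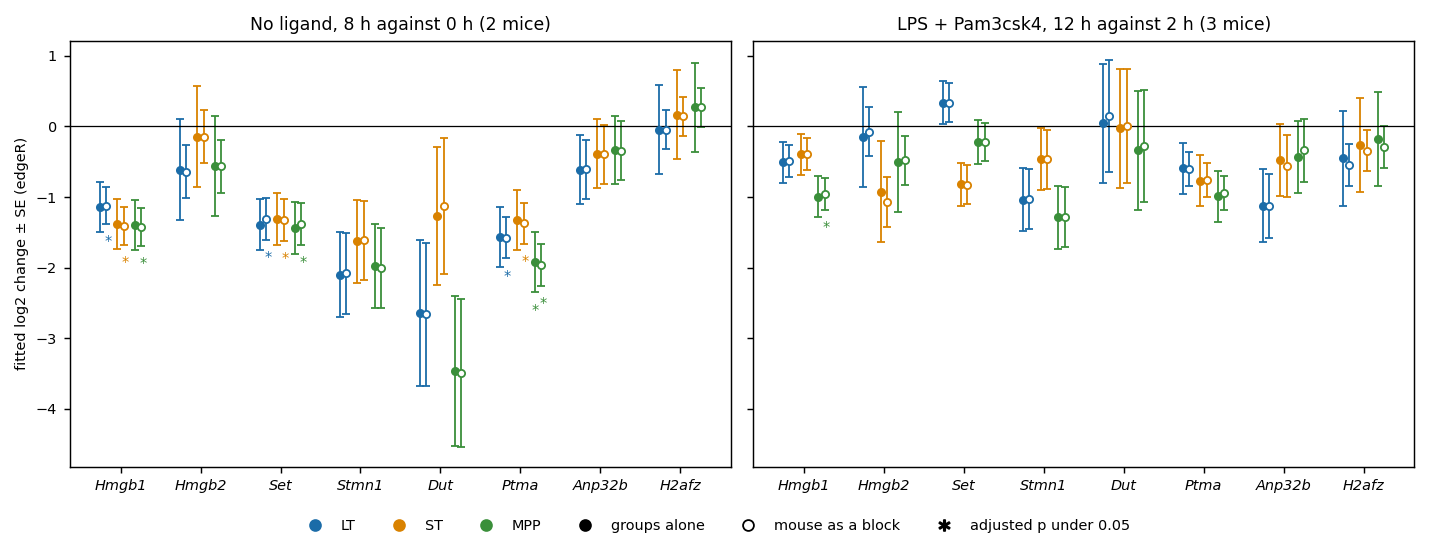
Fitted log2 changes ± SE from edgeR for the 8 genes in LT, ST and MPP, without ligand at 8 h against 0 h (left, 2 mice) and with ligand at 12 h against 2 h (right, 3 mice). Filled points fit the groups alone and open points add mouse as a block; asterisks mark an adjusted p under 0.05. Without ligand Hmgb1, Set and Ptma carry asterisks in the blocked fit of all 3 cell types, and Ptma in MPP also in the fit without it; at 12 h only Hmgb1 in MPP does, in the blocked fit.

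Related genes were read from lists built around the 8. In the cultures without ligand at 8 h, of 32 genes of nucleotide supply and replication 0 passed in any cell type, while 27, 28 and 31 had fitted changes below 0 in LT, ST and MPP. Their median log2 change was -0.94, -0.93 and -1.40, beside 0.00, 0.00 and -0.07 over all genes. Of 22 mitosis genes 20, 20 and 22 lay below 0 (medians -0.84, -1.35 and -1.50), and 0 passed. Of 26 other HMG proteins and acidic chaperones 21 lay below 0 in each cell type (medians -0.68, -0.30 and -0.62), and 0 passed. The list of tubulins and other stathmins had medians of 0.00, 0.09 and 0.23, and partners of Set -0.72, -0.74 and -1.13, with 0 called. Receptors of Hmgb1 had medians of 0.14, -0.18 and 1.38, with 0 of 8 called.

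Of 15 other histone variant and lamina genes 13, 12 and 12 had fitted changes below 0 without ligand in LT, ST and MPP (medians -1.02, -1.09 and -1.15). Of these genes 1 passed, in MPP: H2afy, which encodes macroH2A1. It averaged 45.1 ± 22.5 CPM at 8 h and 403 ± 33.6 CPM at 0 h (SD, n = 2 each; log2 change -2.90 ± 0.62, adjusted p = 0.019). H2afz held 1274 ± 53.0 CPM at 8 h and 1259 ± 12.5 CPM at 0 h in the same libraries. Of the 8 LT markers 1 passed in MPP, Procr, with 385 counts at 8 h and 0 at 0 h, at least 170-fold higher when the 0 h libraries are set to 3 counts in all. The 8 markers had a median log2 change of -0.11 there, and 4 of them had fitted changes below 0. In stimulated cells at 12 h against 2 h, 0 genes of any of these lists passed. The median of the nucleotide supply list was then -1.49 in LT, -0.54 in ST and -0.51 in MPP, beside 0.00, -0.17 and -0.03 over all genes. The chaperone list gave -0.29, -0.69 and -0.50. Other lists did not all run that way: mitosis genes gave -0.53, 0.17 and -0.05, and tubulins and other stathmins -0.17, 0.08 and 0.03. Histone variant and lamina genes gave -0.31, 0.07 and -0.22. Partners of Set gave -0.03, -0.19 and -0.11, and receptors of Hmgb1 -0.48, -1.18 and -0.42.

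At 0 h the mean of each of the 8 genes was highest in MPP, but none of them differed between cell types after adjustment. Stmn1 averaged 260.0 ± 55.1 CPM in LT, 244 ± 66.0 in ST and 417 ± 122 in MPP (SD, n = 6 each). It was lower in LT than in MPP in 5 of 6 mice (log2 difference -0.66 ± 0.24). Dut averaged 131 ± 43.0 CPM in LT, 115 ± 34.5 in ST and 190.5 ± 24.5 in MPP, and was lower in LT and in ST than in MPP in 6 of 6 mice. None of the 8 genes passed between LT and MPP, where 0.00869% of 11501 genes did in either direction. The adjusted p of each of the 8 rounded to 1.0. Between LT and ST, and between ST and MPP, 0 of the 8 and 0% of all genes passed, and no call of the 8 was gained with mouse as a block.

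By edgeR's quasi-likelihood test Stmn1 and Dut, 2 of the 8 genes, had an unadjusted p under 0.05 between LT and MPP, where 3.35% of all genes had one, and between ST and MPP, where 1.76% had, the log2 differences from MPP in ST being -0.76 ± 0.24 and -0.73 ± 0.24. The 3 comparisons share libraries, and those of young mice 1, 2 and 3 entered the choice of the genes. Ptma averaged 1168 ± 313 CPM in LT, 1161 ± 190.0 in ST and 1521 ± 337 in MPP, and was lower than in MPP in 5 of 6 mice in LT and 6 of 6 in ST. Hmgb1, Set, Anp32b, Hmgb2 and H2afz differed between LT and MPP by -0.27 to -0.14 on the log2 scale. The gene of the lists that passed between LT and MPP was again H2afy, with 209 ± 68.9 CPM in LT and 595 ± 181 CPM in MPP (-1.49 ± 0.24, adjusted p = 0.040).

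**Figure D4:**
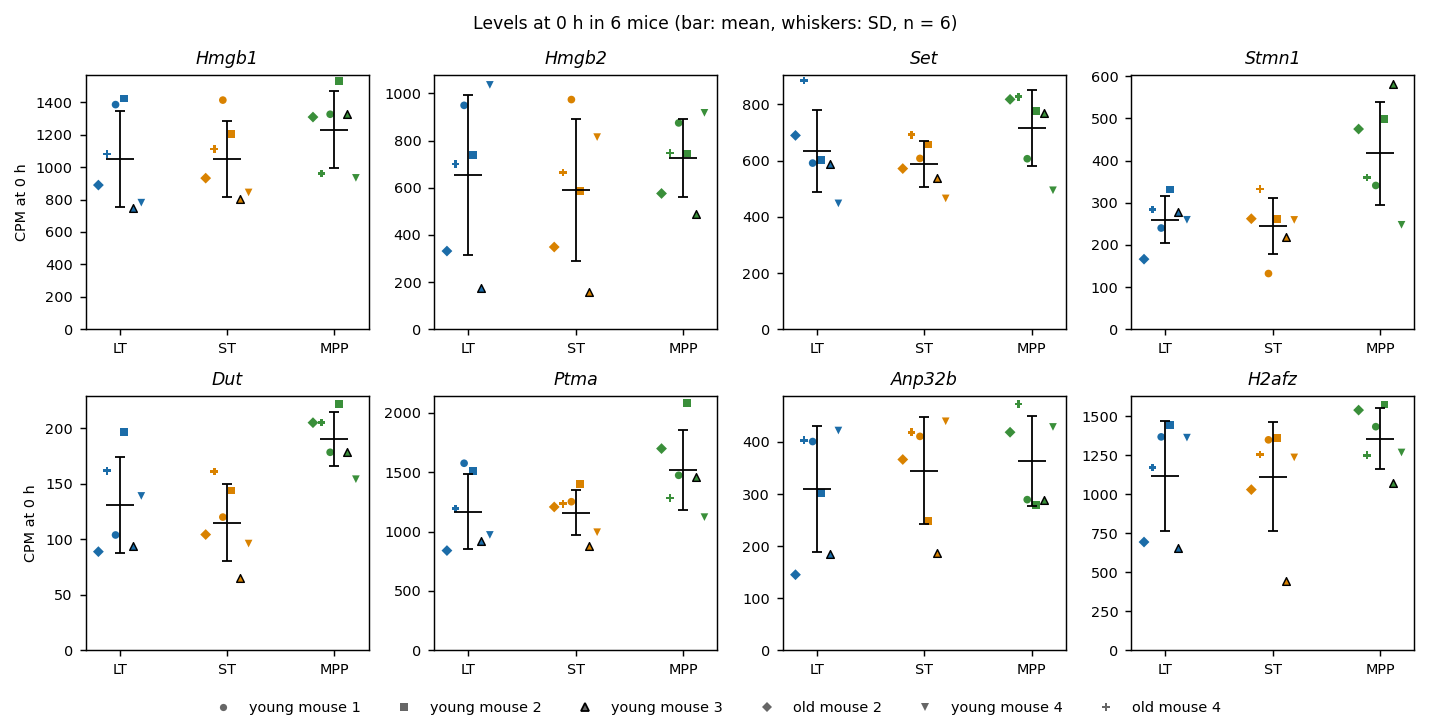
CPM of the 8 genes at 0 h in LT, ST and MPP of 6 mice. Points are mice (shape), with the mean and SD of 6 mice as a bar with whiskers; the outlined triangle is young mouse 3. Stmn1 and Dut stand highest in MPP, and young mouse 3 holds the lowest Hmgb2 in all 3 cell types.

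Young mouse 3 and old mouse 2 held less Hmgb2 than the other mice in LT and ST. The column headers give each mouse of the stimulated course a date of its own, so mouse and date cannot be told apart. At 0 h Hmgb2 stood at 175 CPM in LT of young mouse 3 and at 332 CPM in LT of old mouse 2, against 701 to 1036 CPM in the other 4 mice. In ST young mouse 3 held 157 CPM and old mouse 2 349 CPM, and the others 586 to 974 CPM. H2afz stood at 659 CPM in LT and 443 CPM in ST of young mouse 3, and at 694 CPM in LT of old mouse 2, against 1030.1 to 1442 CPM in LT and ST of the other libraries. Granule transcripts summed to 240 CPM in LT and 158 CPM in ST of young mouse 3 and to 19047 CPM in LT of old mouse 2. In LT of old mouse 4 they summed to 18325 CPM, with Hmgb2 at 701 CPM and H2afz at 1173 CPM. In MPP of young mouse 3, with 98.8 CPM of granule transcripts, Hmgb2 was at 491 CPM and H2afz at 1074 CPM. The part of the granule transcripts in these differences was not tested.

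**Figure D5:**
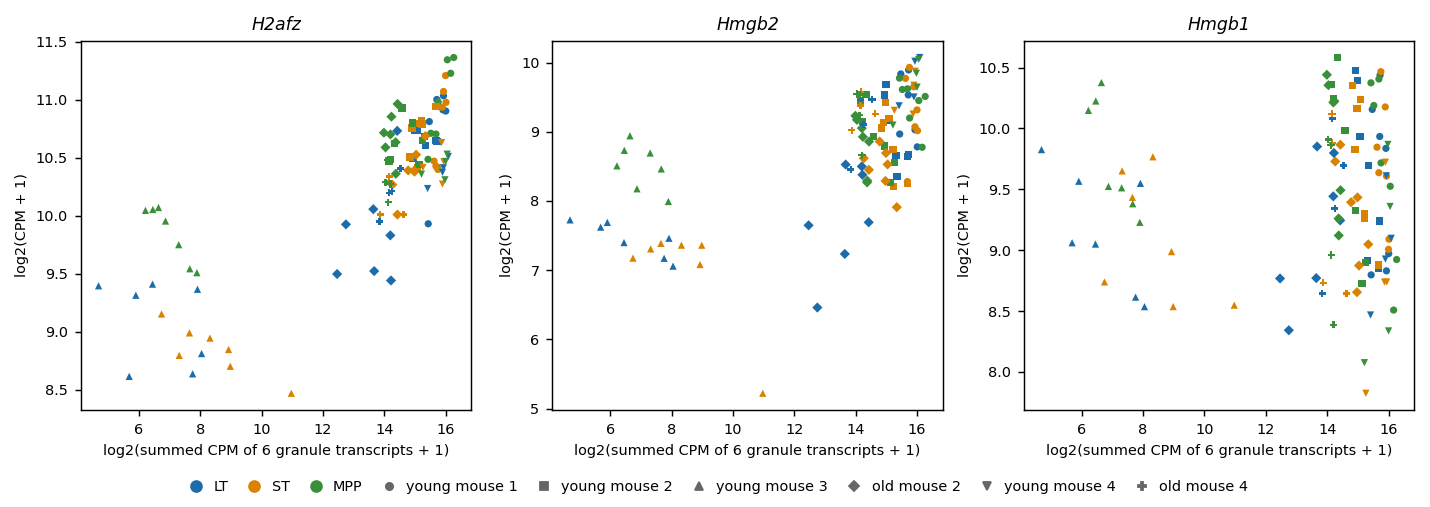
Levels of H2afz, Hmgb2 and Hmgb1, as log2(CPM + 1), against the summed CPM of 6 granule transcripts, as log2(CPM + 1), in 108 libraries. Colour gives the cell type and shape the mouse. The triangles of young mouse 3 form a group apart at the left, low in H2afz and Hmgb2 in LT and ST, while its Hmgb1, over all times, lies within the range of the other mice; at 0 h it is the lowest of 6 in LT (748 CPM) and ST (803 CPM).

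Old mice were compared with young ones at 0 h, 2 against 4. None of the 8 genes passed over 12983 genes in LT, ST or MPP, and 0% of all genes did in each. At an unadjusted p under 0.05 edgeR found 440 of all genes in LT, 551 in ST and 56 in MPP, and 0 of the 8 in each. Set in LT of old mice 2 and 4 held 690.0 and 885 CPM, against 591, 602, 589 and 448 CPM in young mice 1, 2, 3 and 4. In MPP Set held 818 and 828 CPM in old mice, against 495 to 776 CPM in young mice. Stmn1 in ST averaged 297 ± 49.6 CPM in old mice (SD, n = 2) and 218 ± 60.5 CPM in young mice (SD, n = 4). Hmgb1 in LT averaged 985 ± 136 CPM in old mice and 1084 ± 370 CPM in young mice.

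Over the 108 libraries Hmgb1 varied most closely with Ptma, Stmn1, Set and Dut among the genes described here. As log2(CPM + 1), Hmgb1 correlated with Ptma at r = 0.90, with Stmn1 at 0.87, with Set at 0.81 and with Dut at 0.71. Without young mouse 3 (87 libraries) these were 0.90, 0.86, 0.80 and 0.68. H2afz correlated with Set at 0.05 and with Hmgb2 at 0.70, the last falling to 0.26 without young mouse 3. The libraries share mice, times and depth, so these values describe the table only. Hmgb1, Set, Stmn1 and Dut were picked for lower levels at 8 h, and the libraries of that choice are among the 108. No background of correlations between other pairs of genes is given here. Among 3784 other genes with a mean of at least 50 CPM, the 8 most like the average profile of the members were Crip1, Banf1, Pcna, Cbx3, Ran, Prtn3, Tuba1b and Nkg7, at r of 0.85 to 0.80. Banf1, Cbx3, Ran and Pcna encode nuclear proteins, Tuba1b a tubulin, Prtn3 a granule protease, Nkg7 a protein of cytotoxic granules and Crip1 a small LIM protein.

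Reads of some of the 8 genes may be split with near-identical copies in the genome. Hmgb1-rs17, a copy listed by name, had a count in 88 of 108 libraries, with a median of 0.619 CPM and a highest value of 4.02 CPM. Levels of the 8 genes are uncertain to the extent that reads went to other copies.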

How the data were processed

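Bulk RNA of LT, ST and MPP from 4 young and 2 old mice was measured. The authors deposited expected counts per gene for 127 libraries, made with RSEM (version not given in the sources used here) on build mm9, per the submitters' processing notes. Of the values 89.5% were whole (tolerance 1e-06), and all were rounded. Counts of technical repeats were added up, and 6 libraries under 1000 counts (7 to 41, all LT of old mouse 2) were left out, which left 108. Columns were tied to mice by the names in the table header and the labels. Libraries at 0 h labelled with ligand were read as the start of that course.

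CPM is counts per 1000000 of the library. Changes were fitted with edgeR 4.0.16 (TMM, filterByExpr, quasi-likelihood F test, 2-sided) in R 4.3.3, with Benjamini-Hochberg adjustment over all genes tested and a threshold of 0.05. SE is the fitted change divided by the square root of F. Fits held 63 libraries (stimulated young mice), 72 (0 to 8 h, all mice) or 18 (0 h). The fit was tested on simulated data. Alternatives were DESeq2 1.42.0, other scalings and filters, mouse as a block, the deepest repeat in place of the sum, and leaving out each mouse.

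Age and number together mark an animal in the labels, and the block joins the libraries of 1 animal. Residuals of young mice 1, 2 and 3 correlated at 0.24, 0.10 and 0.50 with the same mouse and at -0.15, -0.06 and -0.26 with other mice. The 8 genes and the lists were chosen with earlier results of these data known. The 8 genes are named throughout, list genes where they passed, and the 8 genes most like the members by correlation among those with a mean of at least 50 CPM. A result on 1 further item is not reported here.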

Additional observations from a re-analysis of the deposited data

Results flagged for a closer look

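In groups of 4 or 6 mice at 0 h, a sample was looked for whose gap to its nearest neighbour took up most of the group's range. Of 48 groups examined 5 held one, and chance gives about 1 in 20; the 4 young mice are also among the 6, so the groups are not independent. H2afz in ST of young mouse 3, at 443 CPM, stood apart both among the 6 mice and among the 4 young mice, and in LT of the same mouse, at 659 CPM, among the 4 young mice. Set in LT of young mouse 4, at 448 CPM, lay below the other young mice. Anp32b in MPP of young mouse 4, at 429 CPM, lay above them.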

How the results depend on the processing

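Of the tested changes of single genes over all settings, 846 kept their direction and side of the threshold, 61 gained a call, 5 lost one and 16 changed sign. For the rest the cause was not tested. At 12 h against 2 h the number of the 8 genes called was 1 in ST and 2 in MPP against the mean of 0.5, 1 and 2 h, and 1 in MPP with the replicate block and with DESeq2. Without ligand at 8 h, calls in LT were 3 with the replicate block, 5 with DESeq2, 2 with old mouse 2 added, 4 with old mouse 2 and the block, and 0 to 2 leaving out 1 mouse. In ST they were 1 with DESeq2 size factors, without TMM and with a filter of 5 CPM, 3 with the block, 4 with DESeq2, 2 with old mouse 2, 4 with old mouse 2 and the block, and 0 to 2 leaving out 1 mouse. In MPP they were 3 with size factors, without TMM, with 5 CPM and with the block, 0 with no filter and with only the libraries compared, 5 with DESeq2, 4 with old mouse 2 with or without the block, and 0 to 3 leaving out 1 mouse. The last setting with young mouse 4 or old mouse 4 left out assumes that the lone library varies like the others. Old mouse 2 with the block was added after seeing the data.

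Against the mean of 0.5 to 2 h, Set in LT gave -0.10, Dut in LT -1.16 and H2afz in MPP 0.081. Dut in ST at 12 h against 2 h gave 0.13 with size factors and with DESeq2, 0.0071 without TMM and 0.0074 with the block. H2afz without ligand gave 0.13 in LT with old mouse 2, 0.15 with the block as well, and -0.057 in ST without TMM. Leaving out 1 mouse gave, at 12 h against 2 h, -0.33 to 0.15 for Hmgb2 in LT, -0.48 to 0.75 for Set in LT, -0.20 to 0.52 for Dut in LT, -0.32 to 0.56 for Dut in ST and -0.57 to 0.033 for H2afz in MPP, and -0.10 to 0.36 for H2afz without ligand in ST. Without TMM the median of all genes without ligand moved to -0.16 in LT, -0.18 in ST and -0.33 in MPP. The block changed no other call of the 8 genes. No block could be fitted between ages, since each mouse has 1 age. With 2 mice a side, and Dut at single counts in some libraries, depth and number limit the smaller changes.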
